A study of Mus musculus with 12 samples.

Results

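The livers of wild-type mice that had received an adenovirus to overexpress ANGPTL8 were set directly against those of mice that had received an adenovirus to knock it down, without passing through the control viruses. The members are the 3 libraries labelled ANG8 and the 3 labelled shANG8, 6 of the 12 libraries of the series, chosen by their labels. Each is liver RNA taken 9 days after the virus. The other 6 libraries, with a control virus named for green fluorescent protein (Ad_GFP) or a control hairpin (shCtrl), enter as the background for what differs between viruses. All 12 livers are WT and all received an adenovirus, so a shift common to both ANGPTL8 viruses does not appear in the difference between them. The ANG8 and shANG8 viruses also differ in the cargo they carry, 1 a transgene and 1 a hairpin, and that difference cannot be told apart from the change in ANGPTL8 in these 6 libraries alone. For this reason the difference between Ad_GFP and shCtrl stands beside the results. The labels do not give the species of the transgene, the hairpin sequence, the promoter, the dose, or the sex and age of the mice. Nor is it stated that each library is a different mouse, so p-values measure the spread between these libraries, which may be technical.

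ANGPTL8 is a small secreted protein of liver and fat whose transcript rises with feeding and insulin. It acts on lipoprotein lipase, the enzyme that releases fatty acids from circulating triglyceride. In the liver, fat synthesis is switched on by the insulin-responsive factor SREBP-1c and the sugar-responsive factor ChREBP, and many secreted plasma proteins and nutrient enzymes are made by hepatocytes almost alone.

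The 6 libraries held 12537083 to 14643500 counts. On the first principal component of their log2 CPM values, which took 55.2% of the variance, the ANG8 libraries lay at 51.3 to 57.7 and the shANG8 libraries at -68.5 to -33.4, with shANG8 replicate 3 nearest to ANG8. No pair of replicates was alike within counting noise: the chi-square per gene was 18.4 to 143 between ANG8 libraries and 32.1 to 50.5 between shANG8 libraries. Transcripts of the mitochondrial genome took 39.0, 43.8 and 22.5% of the counts in ANG8 and 22.7, 22.9 and 19.3% in shANG8. The ANG8 replicates 1 and 2 were high and replicate 3 lay among the shANG8 libraries, so the groups overlapped. Their means differed by 13.5 percentage points (exact two-sided permutation p = 0.3, with 0.1 the smallest that 3 against 3 can give). ANG8 replicate 3 also stood apart in haemoglobin: Hba-a1, whose count is uncertain because of near-identical copies, was at 75.4, 97.6 and 1057 CPM in ANG8 and 98.1, 36.5 and 101 CPM in shANG8. Beside the main results, values are therefore also given with ANG8 replicate 3 as the only ANG8 library, an alternative chosen after the data were seen, in which the lone library is assumed to vary like the other groups.

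Angptl8 itself is a protein-coding gene on the plus strand of chromosome 9 in GRCm38 (21835510 to 21837347; ENSMUSG00000047822) and was read first, being the target. Its level was 165, 314 and 172 CPM (counts scaled to library size, with TMM factors) in ANG8 and 144, 143 and 79.2 CPM in shANG8. Every ANG8 library lay above every shANG8 library, and ANG8 replicate 2 was the highest by far. The log2 fold change of 0.83, SE 0.33 missed the threshold of 0.05 (edgeR quasi-likelihood test, adjusted p = 0.0791), and without ANG8 replicate 2 it was 0.47 (adjusted p = 0.317). In order of group means, shCtrl held 299 ± 117 CPM (SD, n = 3), ANG8 217 ± 84.0, shANG8 122 ± 37.1 and Ad_GFP 89.1 ± 8.24. The ANG8 mean thus lay below that of shCtrl, and the shANG8 mean above that of Ad_GFP. Whether these counts include reads of the transgene is not given in the labels. The difference between ANG8 and shANG8 exceeded that between Ad_GFP and shCtrl by 2.58 on the log2 scale (SE 0.46, adjusted p = 0.007). Only 0.83 of this is the direct difference. The larger part is the gap between the controls, where Ad_GFP lay below shCtrl.

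**Figure D1:**
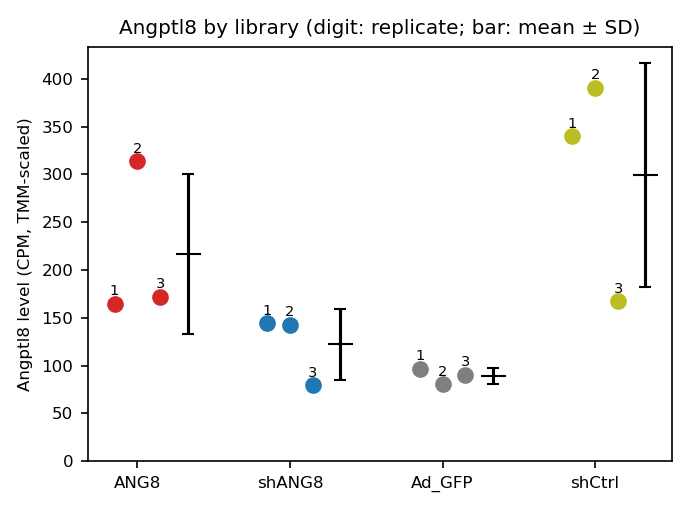
Level of Angptl8 in CPM (vertical axis, from 0) in each library of the 4 groups, with digits for replicates and bars for mean ± SD. The 3 ANG8 libraries, at 165 to 314 CPM, sit above the 3 shANG8 libraries, at 79.2 to 144 CPM, while shCtrl is the highest group.

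The livers given the 2 viruses differed widely. Of 14686 genes tested, 3717 (25.3%) were called at an adjusted p under 0.05 by edgeR, 1960 higher in ANG8 (13.3%) and 1757 lower (12%), and 3467 of the called genes are protein-coding. By a difference of at least 2-fold, 1489 were higher (10.1%) and 723 lower (4.92%). The 3 libraries of each group did not overlap for 5701 genes (38.8%), 2995 with ANG8 above (20.4%) and 2706 with ANG8 below (18.4%), and 3580 of the called genes were among them. The median log2 fold change of all genes tested was 0.0062. Below, values in brackets after a gene are its log2 fold change in ANG8 minus shANG8, followed where given by its SE and its edgeR adjusted p, and a list's median is that of the same log2 fold changes. With ANG8 replicate 3 as the only ANG8 library, 1504 genes were called, 867 higher and 637 lower. By contrast, edgeR called 0 genes between Ad_GFP and shCtrl, with 1286 (8.76%) at an unadjusted p under 0.05. DESeq2 called 46 and limma voom 0. The difference between ANG8 and shANG8 departed from that between the controls for 972 genes (6.62%), 546 in the higher direction (3.72%) and 426 in the lower (2.90%). That count was 473 without ANG8 replicate 1, 592 or 623 without Ad_GFP replicate 1 or 2, and 487 or 578 without shCtrl replicate 1 or 2.

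**Figure D2:**
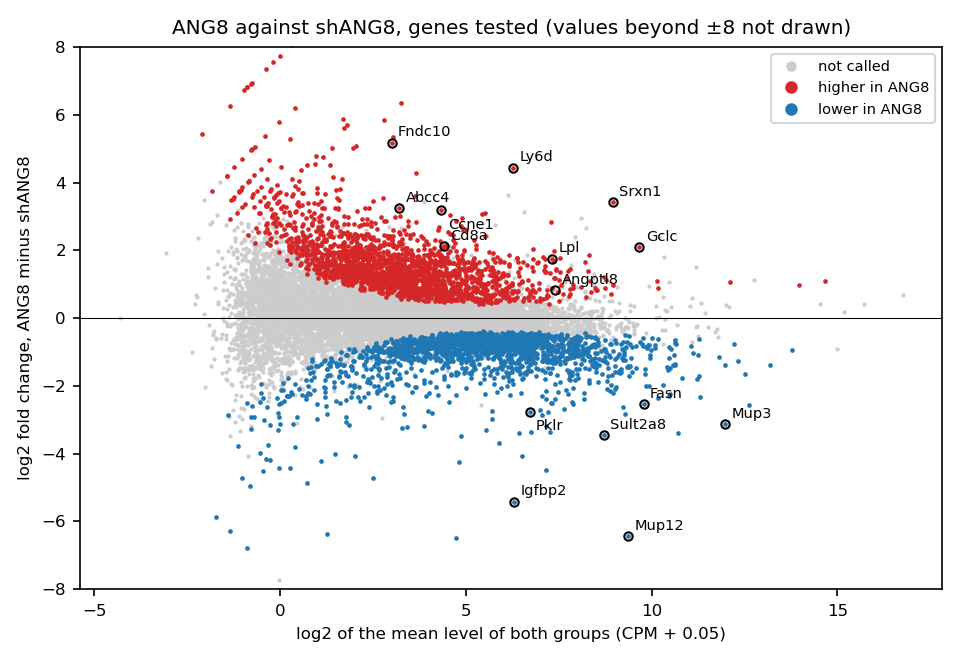
Log2 fold change of ANG8 minus shANG8 (vertical axis) against the log2 mean level of both groups (horizontal axis) for the genes tested, with genes called higher in ANG8 in red, called lower in blue and the rest in grey. Srxn1 (3.43) and Fndc10 (5.18) lie high and Igfbp2 (-5.42) and Mup12 (-6.43) low, while Angptl8 (0.83) is circled among genes not called.

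The 12 largest rises had log2 fold changes of 3.18 (Ccne1) to 5.33 (Amn). Srxn1, which encodes sulfiredoxin, a repair enzyme of oxidised peroxiredoxins, was at 863, 846 and 1004 CPM in ANG8 and 51.6, 50.9 and 149.5 CPM in shANG8. The shANG8 replicate 3 was the highest of its group, yet the groups were far apart (log2 fold change 3.43, SE 0.40, edgeR adjusted p = 6.57e-05). Abcc4, an efflux pump of bile acids and cyclic nucleotides, stood at 12.7, 16.5 and 20.6 CPM in ANG8 against 2.12, 0.865 and 2.25 CPM (3.24, SE 0.40, 3.9e-05). Ccne1, cyclin E1 of the entry into DNA synthesis, was at 46.6, 26.6 and 36.2 against 2.65, 2.75 and 6.54 CPM (3.18, SE 0.32, 1.06e-05). These 3 genes were called in every alternative that tested them. Gzma, granzyme A of cytotoxic lymphocytes, was at 11.2, 10.6 and 9.04 against 1.59, 0.708 and 0.492 CPM (3.45, SE 0.39, 1.92e-05). Amn, a partner of the vitamin B12 receptor cubilin, was at 17.5, 12.1 and 18.6 CPM in ANG8 and at 0, 0 and 1.12 CPM in shANG8 (5.33, SE 0.98, 0.00253). That fold rests on shANG8 replicate 3: without it both shANG8 libraries left are at 0, and the fitted value was 10.82, which depends on the prior count and is no measure of size. Fndc10, Ddit4l, an inhibitor of mTOR signalling, and Hapln1, a link protein of hyaluronan matrix, were higher by a log2 change of 5.18, 3.59 and 3.55. Ly6d (4.44) and the tektin gene Tekt5 (4.28) lost their calls without shANG8 replicate 1, and Ly6d also without ANG8 replicate 3. Kifc1, a mitotic motor (3.25), and Raet1d, a ligand of the NKG2D receptor (3.25), share sequence with other genes and are uncertain.

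The 12 largest falls had log2 fold changes of -6.49 (Mup16) to -3.37 (Mup11), and 5 of the 12 were major urinary proteins. Igfbp2, which binds insulin-like growth factors in plasma, was at 3.55, 4.67 and 2.61 CPM in ANG8 and 247, 118 and 95.4 CPM in shANG8. The lowest shANG8 library was many times the highest ANG8 library (log2 fold change -5.42, SE 0.79, edgeR adjusted p = 0.00121). Fabp5, a fatty acid binding protein, was at 7.39, 6.72 and 11.6 against 210.5, 64 and 56.5 CPM, with shANG8 replicate 1 the highest (-3.68, SE 0.58, 0.00151). Sult2a8, a hepatic sulfotransferase, was at 66.4, 97.4 and 47.1 against 1021, 859 and 429.7 CPM (-3.45, SE 0.34, 1.22e-05) and kept its call in every alternative. The other falls by this rule are uncertain because their transcripts share sequence with other genes. They are the major urinary proteins Mup16 (-6.49), Mup12 (-6.43), Mup1 (-4.73), Mup7 (-4.49) and Mup11 (-3.37), the steroid enzyme Hsd3b5 (-4.07), the channel gene Hcn3 (-3.47), which overlaps Pklr, the hepcidin paralog Hamp2 (-3.40) and the protease inhibitor Serpina1e (-3.39). Mup7, Mup11, Mup12 and Hamp2 lost their calls when single ANG8 libraries were left out: each of the 3 for Mup7 and Hamp2, and replicate 2 or 3 for Mup11 and Mup12. Mup7, Mup11 and Hamp2 also lost them without single shANG8 or control libraries. Mup16, Hsd3b5 and Serpina1e lost theirs with the mitochondrial share as a covariate, as did Mup7, Mup11, Mup12 and Hamp2. Mup1 lost its call with limma voom. When ANG8 replicate 3 was the only ANG8 library, every fall named here except Sult2a8 lost its call.

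**Figure D3:**
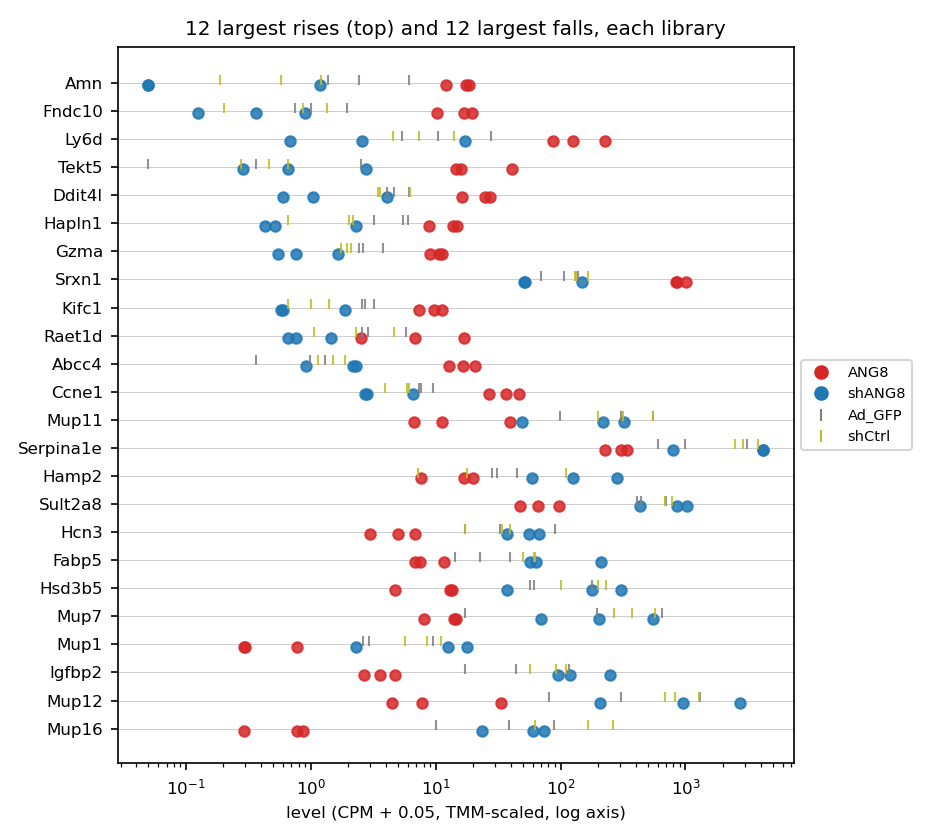
Level of the 12 largest rises (upper rows) and 12 largest falls (lower rows) in each library, in CPM + 0.05 on a log axis, with dots for ANG8 (red) and shANG8 (blue) and ticks for the control groups. For Srxn1 the ANG8 dots lie at 846 to 1004 CPM and the shANG8 dots at 50.9 to 149.5 CPM.

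Genes of fat synthesis were lower in ANG8 along nearly the whole pathway. Of 25 members tested, 20 were lower and 0 higher, with a median log2 fold change of -1.57, against -0.18 for Ad_GFP minus shCtrl. Fasn, fatty acid synthase, was at 254, 237 and 288 CPM in ANG8 and 1568, 1127 and 1815 CPM in shANG8, a difference of -2.53, SE 0.22 with no overlap (edgeR adjusted p = 2.48e-06). The control means, 899 CPM in Ad_GFP and 1198 CPM in shCtrl, lay between the means of ANG8 and shANG8. The lowest shANG8 library, at 1127 CPM, was below the shCtrl mean. Acly, the citrate lyase that supplies acetyl-CoA, was at 46.6, 46.9 and 43.4 against 276, 191 and 245 CPM (-2.38, SE 0.23, 6.73e-06). Elovl5, an elongase of polyunsaturated fatty acids, was at 199, 204 and 187 against 1028, 642 and 846 CPM (-2.09, SE 0.22, 1.03e-05). Among the regulators, Srebf1, the gene of SREBP-1c, was lower, at a log2 change of -1.68, and Mlxipl, the gene of ChREBP, at -1.01. The desaturases Scd1 (-2.56), Fads1 (-1.61) and Fads2 (-1.69) and the lipase-like Pnpla3 (-2.04) were lower too. Scd2, another desaturase, stood at a log2 change of 1.45 (adjusted p = 0.112) and did not pass. Pklr, pyruvate kinase of liver, was at 21.3, 25.5 and 34.5 against 193, 186 and 171 CPM (-2.76, SE 0.27) and is uncertain, since its transcripts share sequence with those of Hcn3. Of the 25, 11 departed downwards from the difference between the controls. In the fit with ANG8 replicate 3 alone, 13 were lower.

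Of 30 genes of lipases, lipoproteins and their regulators, 15 (50%) were lower in ANG8 and 3 (10%) higher, against 12% and 13.3% of all genes tested (median -0.66, control difference -0.01). Lpl, lipoprotein lipase, was at 261, 271 and 211 CPM in ANG8 and 90.9, 61.8 and 68.1 CPM in shANG8, a difference of 1.75, SE 0.21 (edgeR adjusted p = 3.45e-05). Each ANG8 library lay far above each shANG8 library. Lpl is expressed by macrophages as well as by fat and muscle, and 18 of 25 macrophage markers were higher in the same libraries; their part in the Lpl value was not tested. Hepatic lipase, Lipc, went the other way, at 17.3, 15.9 and 18.7 against 74, 62.3 and 60.9 CPM (-1.92, SE 0.18, 5.2e-06). Endothelial lipase, Lipg, was lower, at a log2 change of -1.68. Angptl4, a relative of ANGPTL8 that inhibits lipoprotein lipase, stood at a log2 change of -0.31 (adjusted p = 0.444), which did not pass. Among apolipoproteins, Apoc1, an inhibitor of lipoprotein uptake, was at 2966, 3189 and 3014 against 7479.6, 7658 and 6749 CPM (-1.26, SE 0.19). Apoa1 and Apoa2 of high-density lipoprotein were lower, at a log2 change of -1.38 and -1.65, and Apoc3, a lipase inhibitor, at -0.77. Apob stood at a log2 change of -0.54 (adjusted p = 0.0624). Abcg1, a cholesterol exporter, was at 16.9, 17 and 22 against 5.38, 4.25 and 6.12 CPM (1.82, SE 0.27, 0.000139). With the mitochondrial share as a covariate 8 members were lower, and with ANG8 replicate 3 as the only ANG8 library 6.

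Genes of cholesterol synthesis were lower as well: 13 of 23 members tested were lower and 0 higher (median -0.84, control difference -0.17). Pmvk, phosphomevalonate kinase, was at 6.59, 5.98 and 4.67 CPM in ANG8 and 34.9, 23 and 21.7 CPM in shANG8 (-2.21, SE 0.28, edgeR adjusted p = 3.92e-05). Stard4, a sterol carrier, was at 26.3, 28.4 and 19 against 120.2, 61.4 and 68.6 CPM (-1.77, SE 0.27). In both genes shANG8 replicate 1 was the highest library, and without it 7 members of the list were lower and the median was -0.46. Without ANG8 replicate 1, 7 were lower, and without ANG8 replicate 2, 8. Sqle, Msmo1 and Fdft1 stood at a log2 change of -0.65, -0.93 and -0.37 without passing, and Fdft1 is uncertain.

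Among genes of triglyceride synthesis, droplets and lipolysis, 4 of 24 (16.7%) were higher and 7 (29.2%) lower (median -0.10), against 13.3% and 12% of all genes tested. Cidec, a lipid droplet protein that favours large droplets, was at 50.2, 46.6 and 62.4 CPM in ANG8 and 3.71, 5.43 and 11.3 CPM in shANG8 (2.95, SE 0.58, edgeR adjusted p = 0.00481). Dgat2, which makes triglyceride from newly made fatty acids, was lower, at 235, 244 and 242 against 802, 588 and 604 CPM (-1.47, SE 0.20, 6.63e-05). Lpin1, a phosphatidate phosphatase, was lower, at a log2 change of -2.40. The counts of this list rested on single libraries: 2 members were higher and 2 lower without ANG8 replicate 1, and 3 were lower without ANG8 replicate 2. Without ANG8 replicate 3 or shANG8 replicate 2, 2 were higher, without shANG8 replicate 1, 2 were higher and 4 lower, and without shANG8 replicate 3, 4 were lower with a median of 0.06. Of 39 genes of fatty acid oxidation and PPARα targets, 4 (10.3%) were higher and 10 (25.6%) lower (median -0.16, or -0.30 to -0.0075 without 1 library), so the share that was higher was no larger than that of all genes. The mitochondrial enzymes Echs1 (-1.19), Acads (-1.02) and Acaa2 (-0.99) were lower, as was the coactivator gene Ppargc1a (-1.65). Ucp2, an inner-membrane carrier, was higher, at 216, 175 and 232 against 74, 45.4 and 94.4 CPM (1.54, SE 0.23, 0.000143). The gatekeeper Cpt1a stood at a log2 change of -0.31 (adjusted p = 0.196) and Fgf21 at 2.69 (adjusted p = 0.161), and neither passed. On ANG8 replicate 3 alone 1 member of the oxidation list was higher and 1 lower, and its median was 0.15. Without shANG8 replicate 1, 2 were higher and 6 lower, without shANG8 replicate 3, 7 were higher, and without ANG8 replicate 3 or shANG8 replicate 2, 1 was.

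In a list of glycolysis, gluconeogenesis and glycogen, 12 of 24 genes were lower in ANG8 and 1 higher (median -0.66, control difference -0.12). Without shANG8 replicate 3, 2 were higher. Khk, ketohexokinase of fructose use, was at 262, 251 and 304 CPM in ANG8 and 843, 793 and 841 CPM in shANG8 (-1.60, SE 0.19, edgeR adjusted p = 3.3e-05). Slc2a2, the glucose transporter GLUT2, was at 186, 224 and 152 against 562, 496 and 445 CPM (-1.42, SE 0.18). Gys2, liver glycogen synthase, was at 60.6, 58.4 and 71.9 against 201, 208 and 137 CPM (-1.51, SE 0.20). Groups did not overlap for any of the 3. The gluconeogenic genes G6pc, Pck1 and Fbp1 were lower, at a log2 change of -2.52, -2.32 and -1.90, while mitochondrial Pck2 was higher by a log2 change of 1.26. Of the 24, 10 departed downwards from the difference between the controls. In the insulin and growth hormone list, 9 of 25 (36%) were lower and 2 (8%) higher (median -0.55). The share that was higher was no larger than the 13.3% of all genes tested. Irs2, an adaptor of the insulin receptor, was at 1.52, 2.95 and 2.85 against 21.6, 23.2 and 7.87 CPM (-2.84, SE 0.47, 0.000756), with shANG8 replicate 3 nearest to ANG8. The growth hormone receptor Ghr was at 125, 135 and 154 against 471, 382 and 324 CPM (-1.51, SE 0.21, 7.73e-05) and Igf1 was lower, at a log2 change of -0.87. The 2 higher members were Jak2 (0.55) and Stat5a (0.78), a kinase and a transcription factor of growth hormone signalling, but 0 were higher without ANG8 replicate 1 or shANG8 replicate 1 and 1 without any other single library except shANG8 replicate 3. From ANG8 replicate 3 alone 3 of this list were lower.

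Genes of amino acid breakdown and the urea cycle were lower: 27 of 30 members tested were lower and 0 higher (median -1.26, control difference -0.25). Cps1, the entry enzyme of the urea cycle, was at 171, 165 and 191 CPM in ANG8 and 759, 882 and 820.2 CPM in shANG8 (-2.22, SE 0.23, edgeR adjusted p = 1.03e-05). Hpd, of tyrosine breakdown, was at 340.1, 403 and 381 against 2141, 2007 and 1614 CPM (-2.36, SE 0.20, 2.48e-06). Hal, histidine ammonia-lyase, was at 39.5, 63.4 and 57 against 409.7, 295 and 330.0 CPM (-2.69, SE 0.27), and Gls2, liver glutaminase, at 89.9, 111 and 106 against 495, 451 and 484 CPM (-2.22, SE 0.22). The shANG8 libraries were several-fold above every ANG8 library for all 4 genes. Otc (-1.40), Asl (-1.70) and Arg1 (-0.90) of the urea cycle were lower, as was Ass1 (-2.25), whose count is uncertain. Sdsl, Glud1 and Bckdhb did not pass, at -0.39, -0.34 and 0.25. Of the 30, 16 departed from the difference between the controls, and 17 were lower with ANG8 replicate 3 as the only ANG8 library. In a list of amino acid transporters with ABC and SLC22 carriers, 10 of 30 were lower and 10 higher. The hepatic glutamine transporter Slc38a3 was at 499, 601 and 433 against 2315, 2173 and 1566 CPM (-1.98, SE 0.24), and Slc1a5, a glutamine importer of growing cells, was higher by a log2 change of 1.32.

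Of 25 genes of bile acid synthesis, conjugation and transport tested, 12 (48%) were lower and 2 (8%) higher (median -0.79, control difference -0.28). Of all genes tested, 12% were lower and 13.3% higher, so the share that was higher was no larger than that of all genes. Slc10a1, the sodium-dependent importer NTCP, was at 27.9, 37.9 and 36.4 CPM in ANG8 and 283, 188 and 193 CPM in shANG8 (-2.70, SE 0.22, edgeR adjusted p = 2.48e-06). Slc27a5, which activates bile acids for conjugation, was at 71.1, 77.4 and 85.3 against 403, 322 and 289 CPM (-2.12, SE 0.22), and Cyp8b1, of cholic acid synthesis, at 24.3, 29 and 18.9 against 118, 96.1 and 84.9 CPM (-2.05, SE 0.31). Groups did not overlap in these genes. The canalicular export pump Abcb11 was lower, at a log2 change of -1.15. The 2 higher members were Abcc4, given above, and Slc51b (1.69), a subunit of an organic solute transporter. Without any single ANG8 library, or without shANG8 replicate 1 or 2, 1 member of the list was higher. The rate-limiting enzyme Cyp7a1 stood at a log2 change of -0.52 (adjusted p = 0.673) and did not pass.

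Most male-biased genes tested and a minority of drug-metabolism genes were lower in ANG8. Of 29 P450 and conjugation genes, 11 were lower (37.9%, against 12% of all genes tested), 2 higher and 16 not called. The median was -0.38, or -0.70 to -0.18 without 1 shANG8 library. The summed level of this list overlapped between groups, at 9230 to 11860 CPM in ANG8 and 8572 to 13000 CPM in shANG8. Cyp2c29 was at 31.7, 23.6 and 31.7 CPM in ANG8 and 69.6, 114 and 111 CPM in shANG8 (-1.75, SE 0.21, edgeR adjusted p = 2.71e-05), and Cyp2e1, an ethanol oxidiser, at 377, 391 and 526 against 1349, 1319 and 1437 CPM (-1.67, SE 0.22). Cyp2c50 (-2.53) and Cyp2c37 (-1.58) were lower with uncertain counts. Cyp3a11 stood at a log2 change of 0.20 (adjusted p = 0.889). Of 25 genes that are higher in male than in female mouse liver, 18 were lower and 0 higher (median -2.17, control difference -0.44). The list includes major urinary proteins whose transcripts share sequence with other genes. Among them are Mup16, Mup21 and Mup3, with 91.7, 19.3 and 13.3% of their sequence windows shared. The same reads may therefore enter this count and median through different members. The list was not tested without the urinary proteins. Egfr, the epidermal growth factor receptor, was at 75.3, 100.3 and 98.3 against 411, 536 and 207 CPM (-2.08, SE 0.28, 9.28e-05) and Susd4, a complement regulator, at 3.84, 2.70 and 1.76 against 21, 19.8 and 10.3 CPM (-2.63, SE 0.40). Mup3 and Mup21, uncertain among the urinary proteins, were lower, at a log2 change of -3.12 and -2.17. Of 13 female-biased genes tested, 3 were higher and 0 lower (median 0.45, control difference 0.91): Abcd2 (1.13), a peroxisomal fatty acid transporter, and the uncertain Rtn4 (0.60) and Cyp2b13. Cyp2b13 was at 0.942, 0.328 and 1.64 CPM in ANG8 and at 0 in every shANG8 library, so no fold is given. Without ANG8 replicate 2, ANG8 replicate 3 or shANG8 replicate 2, 1 female-biased gene was higher. Without shANG8 replicate 1, 2 were higher and 1 lower with a median of 0.14, and without shANG8 replicate 3 the median was 1.53. As a check of sex, raw counts in the 6 libraries were 0 to 4 for Xist, the transcript of the inactive X chromosome, and 430 to 791 for the Y-linked Ddx3y, both chosen after their values were seen. With ANG8 replicate 3 as the only ANG8 library 6 male-biased genes were lower, and 10 were with the share of mitochondrial counts as a covariate.

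Hepatocyte markers were lower in ANG8. Of 25 hepatocyte markers, 16 were lower and 0 higher (median -0.92, control difference -0.28). Their summed level was 29520 to 58490 CPM in ANG8 and 67650 to 94760 CPM in shANG8. None was at 0 in every library of a group, so each marker had reads in at least 1 library of each group. In bulk tissue, fewer cells of a type and less RNA per cell cannot be told apart. Without ANG8 replicate 3 the median was -1.42, while 10 markers were lower with the mitochondrial share as a covariate and 6 in the fit with that library as the only one of ANG8. Uox, urate oxidase, was at 347, 336 and 478 CPM in ANG8 and 1627, 1510.2 and 1509.8 CPM in shANG8 (-2.0, SE 0.21, edgeR adjusted p = 1.24e-05). Tat, tyrosine aminotransferase, was at 106, 140.0 and 212 against 702, 1448 and 1121 CPM (-2.83, SE 0.39, 0.000212). The transcription factor Cebpa was lower, at a log2 change of -1.0, and Hnf4a at -0.50, while Foxa1, Foxa2 and Foxa3 stood at a log2 change of -0.03, -0.33 and -0.34 without passing. Alb, albumin, stood at a log2 change of -0.92 (adjusted p = 0.0536). Genes of both lobule zones were lower, 10 of 15 periportal (1 higher, or 0 without ANG8 replicate 1 or 2, shANG8 replicate 2 or 3, Ad_GFP replicate 1 or shCtrl replicate 1, median -1.07) and 8 of 17 pericentral (0 higher, median -0.86). Among pericentral genes Gulo, an enzyme of vitamin C synthesis, was at 111, 133 and 122 against 474, 405 and 279 CPM (-1.66, SE 0.22). The Wnt targets Axin2, Tbx3 and Sp5 stood at a log2 change of -0.19, -0.31 and -0.47 without passing.

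Of 33 complement and clotting genes, most of them secreted by hepatocytes, 19 (57.6%) were lower and 4 (12.1%) higher (median -0.78). Of all genes tested, 12% were lower and 13.3% higher, so the share that was higher was no larger than that of all genes. Without ANG8 replicate 3 or shANG8 replicate 2, 2 members were higher. Masp1, a protease of the lectin pathway, was at 44.5, 43.3 and 38.9 CPM in ANG8 and 169, 154 and 79.5 CPM in shANG8 (-1.66, SE 0.24, edgeR adjusted p = 0.000131). Factor VII, F7, was at 26.6, 31.5 and 25.1 against 86.3, 112 and 59.3 CPM (-1.63, SE 0.24), and C9, of the membrane attack complex, at 133, 139.8 and 189 against 426, 437 and 329 CPM (-1.37, SE 0.22). These hepatocyte products did not overlap between groups. Of the 4 higher genes, 3 were C1qa (1.51), C1qb (1.37) and C1qc (1.37), which macrophages make, and the other was Mbl2 (0.89). Acute-phase and iron genes were lower in 10 of 27 (37%) and higher in 3 (median -0.53). The share that was higher, 11.1%, was again no larger than that of all genes. Serpina3n was at 99.7, 113 and 104 against 244, 241 and 217 CPM (-1.15, SE 0.17) and Crp, C-reactive protein, at 38.5, 53 and 72.5 against 162, 164 and 155 CPM (-1.55, SE 0.26). Higher were the iron exporter Slc40a1, at 306, 354 and 273 against 130.1, 88.5 and 140.5 CPM (1.38, SE 0.19), the transferrin receptor Tfrc (1.08) and lipocalin 2, Lcn2 (1.78). The hepcidin gene Hamp, which is uncertain, was lower, at a log2 change of -1.72.

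Interferon-stimulated genes were higher in ANG8. Interferons induce them through transcription factors that bind the interferon-stimulated response element (ISRE). Of 37 members tested, 26 were higher and 0 lower (median 1.15, control difference -0.02). Promoter windows of 300 bases around the gene start, 250 before it and 50 after, were in RefSeq (GRCm38.p6) for 25 of the 37 symbols, 28 windows in all. The ISRE letters searched, GAAA followed after 2 bases of any kind by GAAA, on both strands, were in 16 of these 28 windows (57.1%) and in 1131 of 32851 windows of all genes (3.44%). The windows shown are those of Oas1g, the member with the smallest p, and of Rsad2, whose product viperin blocks viral replication and which was chosen after its values were seen. Capitals mark the matched letters, and a match is a description and not a bound site. The windows are chr5:120887564-120887863 and chr12:26456403-26456702, both on the minus strand.
Oas1g: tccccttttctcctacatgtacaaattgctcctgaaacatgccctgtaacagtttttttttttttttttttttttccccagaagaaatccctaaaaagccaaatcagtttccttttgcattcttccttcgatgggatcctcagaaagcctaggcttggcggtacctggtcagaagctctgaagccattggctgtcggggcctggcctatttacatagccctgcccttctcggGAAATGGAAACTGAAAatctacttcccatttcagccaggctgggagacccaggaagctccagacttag
Rsad2: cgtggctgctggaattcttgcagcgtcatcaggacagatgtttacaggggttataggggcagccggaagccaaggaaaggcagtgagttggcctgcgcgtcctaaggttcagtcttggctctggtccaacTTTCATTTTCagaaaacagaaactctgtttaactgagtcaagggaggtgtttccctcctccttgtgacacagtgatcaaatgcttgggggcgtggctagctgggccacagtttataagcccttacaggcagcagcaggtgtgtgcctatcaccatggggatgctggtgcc

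In the libraries, Oas1g, a sensor of viral RNA with a near-identical paralog and so uncertain, was at 29, 25.1 and 31.2 CPM in ANG8 and 5.84, 6.92 and 7.45 CPM in shANG8 (2.08, SE 0.20, edgeR adjusted p = 5.13e-06). Rsad2 was higher by a log2 change of 1.91. Ifi44, Zbp1, a sensor of Z-form nucleic acids, and Oasl2 showed the same separation. Ifi44 was at 50.1, 50.2 and 61.6 against 17.4, 14.3 and 22.1 CPM (1.59, SE 0.19). Zbp1 was at 98.7, 103 and 119.6 against 25.7, 31.7 and 48.9 CPM (1.59, SE 0.20). Oasl2 was at 44.8, 48.9 and 57.6 against 12.8, 12.7 and 22.5 CPM (1.65, SE 0.21). No ANG8 library of these genes reached down to a shANG8 library, and the control means lay between the means of ANG8 and shANG8. For Zbp1 they were 48.7 CPM in Ad_GFP and 55.7 CPM in shCtrl. The Ad_GFP mean was thus just below shANG8 replicate 3, at 48.9 CPM. Of the 37, 15 departed upwards from the difference between the controls. Stat2 and Irf9, factors of interferon receptor signalling, and Ifih1, a sensor of viral RNA, stood at a log2 change of 0.20, -0.19 and 0.37 and did not pass.

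Genes of interferon gamma and antigen presentation were higher in 22 of 35 and lower in 0 (median 0.86, control difference -0.24). Their summed level overlapped between groups, at 11300 to 12520 CPM in ANG8 and 9505 to 11970 CPM in shANG8. In shCtrl it was higher, at 12600 to 15000 CPM. Ciita, the master regulator of MHC class II, was at 28.5, 40.7 and 23.2 CPM in ANG8 and 8.79, 7.55 and 10.6 CPM in shANG8 (1.77, SE 0.22, edgeR adjusted p = 4.38e-05). Its targets H2-Aa (1.42), H2-Ab1 (1.67), H2-Eb1 (1.46) and Cd74 (1.65) were higher. Gbp4, a guanylate-binding protein, was at 40.1, 55.1 and 41.1 against 13.2, 18.3 and 17.4 CPM (1.48, SE 0.18). The MHC class I genes H2-K1 (-0.23) and B2m (-0.33) did not pass, nor did the chemokine Cxcl9 (-0.72). Of the 35, 22 departed upwards from the difference between the controls. Among chemokines and cytokines, 15 of 25 tested were higher and 1 lower (median 1.10). Ccl24, an eosinophil attractant, was at 10, 11.2 and 20.1 against 2.58, 2.91 and 2.25 CPM (2.42, SE 0.33), and Ccl3, a macrophage chemokine, at 15.2, 15.2 and 7.16 against 1.67, 1.65 and 3.94 CPM (2.35, SE 0.37), with ANG8 replicate 3 the lowest of its group. The lower member was Cxcl12 (-0.82), and Ccl2 stood at a log2 change of 1.43 (adjusted p = 0.0742). When ANG8 replicate 3 was the only ANG8 library, 6 of this list were higher.

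Markers of immune cells moved with these groups. Of 35 T and NK cell markers, 21 were higher and 0 lower (median 1.26, control difference -0.22). Their summed level was 394.9 to 417.6 CPM in ANG8 and 138.1 to 199.5 CPM in shANG8, with none at 0 in every library of a group. Cd8a, of cytotoxic T cells, was at 39.5, 33.8 and 29.9 CPM in ANG8 and 9.02, 6.69 and 7.94 CPM in shANG8 (2.12, SE 0.19, edgeR adjusted p = 4.33e-06). Ptprc, CD45 of all leukocytes, was at 45, 57.5 and 45.5 against 16.4, 14.4 and 22 CPM (1.48, SE 0.20), and Klrk1, the NKG2D receptor, at 21.1, 26.4 and 15.6 against 6.29, 4.33 and 5.06 CPM (2.0, SE 0.24). The checkpoint genes Pdcd1 (2.40), Ctla4 (2.82) and Lag3 (1.73) were higher, while Cd4 stood at a log2 change of -0.68 (adjusted p = 0.13) and did not pass. In the fit with ANG8 replicate 3 alone 9 were higher. The part of these markers in the interferon and chemokine values was not tested.

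Of 25 macrophage and Kupffer cell markers, 18 were higher and 0 lower (median 1.37, control difference 0.29), with a summed level of 1590 to 1996 CPM in ANG8 and 534.4 to 851.3 CPM in shANG8. Cd5l, a secreted protein of resident macrophages, was at 245, 281 and 259 CPM in ANG8 and 92.8, 49.6 and 58.1 CPM in shANG8 (1.97, SE 0.24, edgeR adjusted p = 3.45e-05). Fcgr1, an antibody receptor, was at 33, 29.2 and 36.2 against 8.41, 4.09 and 7.66 CPM (2.28, SE 0.28). Trem2 (1.87) and Gpnmb (2.09), of lipid-handling macrophages, were higher, while the Kupffer cell genes Vsig4, Marco and Timd4 stood at a log2 change of 0.11, -0.55 and 0.67 without passing. Of 11 dendritic cell markers tested, 5 were higher (3 without shANG8 replicate 1), among them Clec9a, at 14.5, 25.7 and 15 against 5.53, 7.79 and 7.80 CPM (1.38, SE 0.30), and Batf3 (1.28) of cross-presenting cells. B cell and plasma cell markers differed from these lists: 0 of 14 passed in either direction (median -0.12, or -0.37 to 0.12 without 1 library), and their summed level was 164 to 205.1 CPM in ANG8 against 175.2 to 241.9 CPM in shANG8. Endothelial markers were at 250.5 to 293.7 CPM in ANG8 and 213.5 to 305.2 CPM in shANG8. Of 18, 1 was higher (5.56%) and 2 lower (11.1%), or 0 to 2 in each direction without 1 library. These shares were no larger than the 13.3% and 12% of all genes tested. Stellate cell and matrix markers summed to 323.9 to 458.8 CPM against 109.3 to 195.6 CPM. Of 23 tested, 19 were not called and 4 were higher (17.4%, near the 13.3% of all genes), or 7 by DESeq2 or limma voom. The 4 were Col4a1 of the basement membrane, at 35.1, 30.8 and 73 against 14.9, 9.68 and 14.1 CPM (1.85, SE 0.29), the mesenchymal filament gene Vim (1.64), Tgfb1 (1.17) and Acta2 (1.77), whose call was lost without ANG8 replicate 1 or 3 or without shANG8 replicate 1 or 2. The fibrillar collagens Col1a1 and Col3a1 stood at a log2 change of 1.91 and 1.57 without passing (adjusted p = 0.0576 and 0.0515).

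Cell cycle genes held the highest median among pathway lists, 1.86, with a control difference of 0.39. Of 38 members tested, 30 were higher and 0 lower. Many such genes are repressed in resting cells by the DREAM complex through a CHR element, and their promoters often hold CCAAT boxes. RefSeq windows were found for 29 of the 38 symbols, 30 windows in all. The CHR letters TTTGAA, on either strand, were in 12 of the 30 (40%) and in 17.9% of 32851 windows of all genes, and CCAAT was in 23 (76.7%) against 37.4%. The window of Top2a, topoisomerase II alpha, which untangles replicated DNA, is shown because Top2a has the smallest p among members that hold the letters. It lies at chr11:99024140-99024439 on the minus strand, with both matches to TTTGAA in capitals.
Top2a: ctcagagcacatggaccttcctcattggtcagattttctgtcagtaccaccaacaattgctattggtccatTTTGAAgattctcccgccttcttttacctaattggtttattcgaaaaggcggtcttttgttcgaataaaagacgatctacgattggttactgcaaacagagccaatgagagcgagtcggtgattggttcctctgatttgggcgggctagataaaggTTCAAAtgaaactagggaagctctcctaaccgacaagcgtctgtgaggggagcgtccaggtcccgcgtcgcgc

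Top2a was at 40.3, 34.6 and 45.3 CPM in ANG8 and 7.12, 3.70 and 10.6 CPM in shANG8 (2.48, SE 0.28, edgeR adjusted p = 2.12e-05). Mcm2, of the replicative helicase, was at 32.6, 27 and 38.7 against 4.02, 3.70 and 8.58 CPM (2.59, SE 0.31), and Cdt1, which loads it, at 18.4, 11.9 and 16.3 against 2.96, 4.25 and 4.08 CPM (2.04, SE 0.25). In Top2a and Mcm2 the shANG8 replicate 3 was the highest of its group, and no library overlapped. The proliferation marker Mki67 was higher by a log2 change of 2.05, Cdk1 by 1.89 and the S-phase regulator E2f1 by 1.57. Cyclin D1, Ccnd1, stood at a log2 change of 0.98 (adjusted p = 0.0763) and is uncertain, and thymidine kinase Tk1 at -0.04. Genes of a list of cell death and of targets of p53, a factor of DNA damage and cell cycle arrest, were higher in 18 of 25 and lower in 1 (median 0.92). Plk2 was at 28.5, 20.6 and 21.7 against 3.94, 7.08 and 6.05 CPM (2.05, SE 0.23, 1.95e-05) and Ccng1, cyclin G1, at 99.1, 78.7 and 99 against 33.3, 33.4 and 42.5 CPM (1.34, SE 0.16). The inhibitor Cdkn1a, p21, was higher by a log2 change of 3.08 and the death receptor Tnfrsf10b by 3.15. The member that was lower, Ei24, lost its call without ANG8 replicate 1 or 2 or shANG8 replicate 3 (-0.56). The values do not say in which cell type these transcripts lay.

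The NRF2 list holds genes induced by electrophiles and oxidants through the antioxidant response element (ARE). Of its 35 members, 11 (31.4%) were higher and 3 (8.57%) lower, against 13.3% and 12% of all genes tested (median 0.98, control difference -0.16). Windows were in RefSeq for 31 symbols, 41 windows in all, and the ARE letters TGACNNNGC, on either strand, were in 12 of them (29.3%) and in 12.4% of all windows. Abcc4 is printed as the member with the smallest p whose window holds a match, at chr14:118706170-118706469 on the minus strand.
Abcc4: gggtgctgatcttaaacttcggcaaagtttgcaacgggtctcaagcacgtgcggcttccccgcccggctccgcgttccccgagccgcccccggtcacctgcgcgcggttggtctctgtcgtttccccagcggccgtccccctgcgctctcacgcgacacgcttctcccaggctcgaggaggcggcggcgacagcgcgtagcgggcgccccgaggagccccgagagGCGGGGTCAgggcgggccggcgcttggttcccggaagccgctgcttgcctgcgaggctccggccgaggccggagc

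Gclc, the catalytic subunit of glutathione synthesis, was at 1366, 1205 and 1399 CPM in ANG8 and 243, 195 and 487 CPM in shANG8 (2.10, SE 0.30, edgeR adjusted p = 0.000139). Gsr, glutathione reductase, was at 206, 209.9 and 202 against 67.1, 72.4 and 102 CPM (1.35, SE 0.18, 6.57e-05). In both, as in Srxn1, shANG8 replicate 3 was the highest library of its group. Txnrd1, thioredoxin reductase (0.98), Hmox1, heme oxygenase (0.85), and Gpx2 (4.54) were higher. The modifier subunit Gclm stood at a log2 change of 0.33 and Nqo1, a quinone reductase, at 2.42 (adjusted p = 0.241 and 0.0718), and neither passed. Sod1 (-0.70) and the glutathione transferase Gsta3 (-1.06) were lower, as was Sod2 (-0.71), which is uncertain. Without shANG8 replicate 3, 18 members were higher and the median was 1.32, and limma voom called 20. Unfolded protein and integrated stress genes did not shift as a list, with 4 of 29 higher and 4 lower (median 0.04). Herpud1, of endoplasmic reticulum protein degradation, was at 135, 119 and 137 against 312, 429 and 364 CPM (-1.50, SE 0.21), and Atf3, a stress factor, at 15.1, 16.1 and 18.1 against 3.41, 3.15 and 5.20 CPM (2.06, SE 0.42). The chaperone Hspa5 stood at a log2 change of -0.05.

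**Figure D4:**
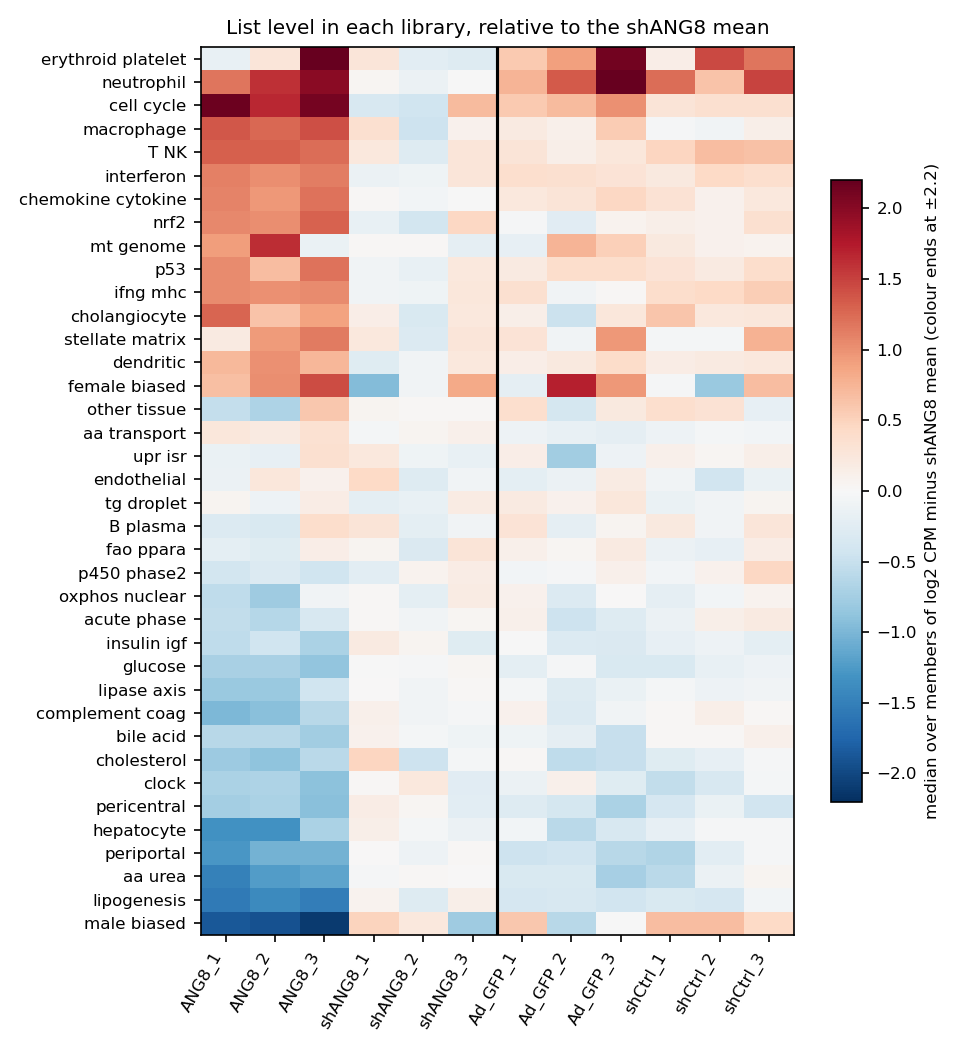
Score of each gene list in each library, the median over its members of the log2 CPM minus the mean of the shANG8 libraries, in colour. The lipogenesis list is low in all 3 ANG8 libraries and the cell cycle list high, while the mitochondrial genome list is high in ANG8 replicates 1 and 2 alone among the ANG8 libraries.

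Circadian clock genes, core and output together, were lower in 7 of 20 and higher in 0 (median -0.85, control difference 0.18). Tef, a clock-controlled factor, was at 167, 184 and 133 CPM in ANG8 and 294, 391 and 258 CPM in shANG8 (-0.96, SE 0.21, edgeR adjusted p = 0.00344), and Cry2, a repressor of the clock, at 22.5, 25.8 and 19.4 against 42.5, 48 and 30.2 CPM (-0.83, SE 0.19). The core gene Arntl stood at a log2 change of 0.40 and Clock at 0.21, and neither passed. The labels give no hour of collection, and its part in these values was not tested. Of 40 nuclear genes of oxidative phosphorylation, 13 were lower and 0 higher (median -0.44). Ndufa6, of complex I, was at 95, 91.5 and 137 against 274, 215 and 280.4 CPM (-1.25, SE 0.21) and Sdhb, of complex II, at 165, 156 and 211 against 362, 289 and 382 CPM (-0.96, SE 0.18). The mitochondrial genome list had 4 of 13 higher (median 0.95), for example mt-Nd1, at 34923, 50652 and 19705 against 16755, 17858 and 15060.4 CPM (1.08, SE 0.32). Its call was lost without ANG8 replicate 1 or 2 or without shANG8 replicate 1 or 3. Both lists turned on the ANG8 libraries: without replicate 2, 8 nuclear genes were lower, and without replicate 3, 25. Of the mitochondrial genes, 1 was higher without ANG8 replicate 1 or 2 or shANG8 replicate 3, and 7 without ANG8 replicate 3. On ANG8 replicate 3 alone 0 of the nuclear genes were lower (median -0.08), and the mitochondrial median was -0.17 with 1 member higher.

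**Figure D5:**
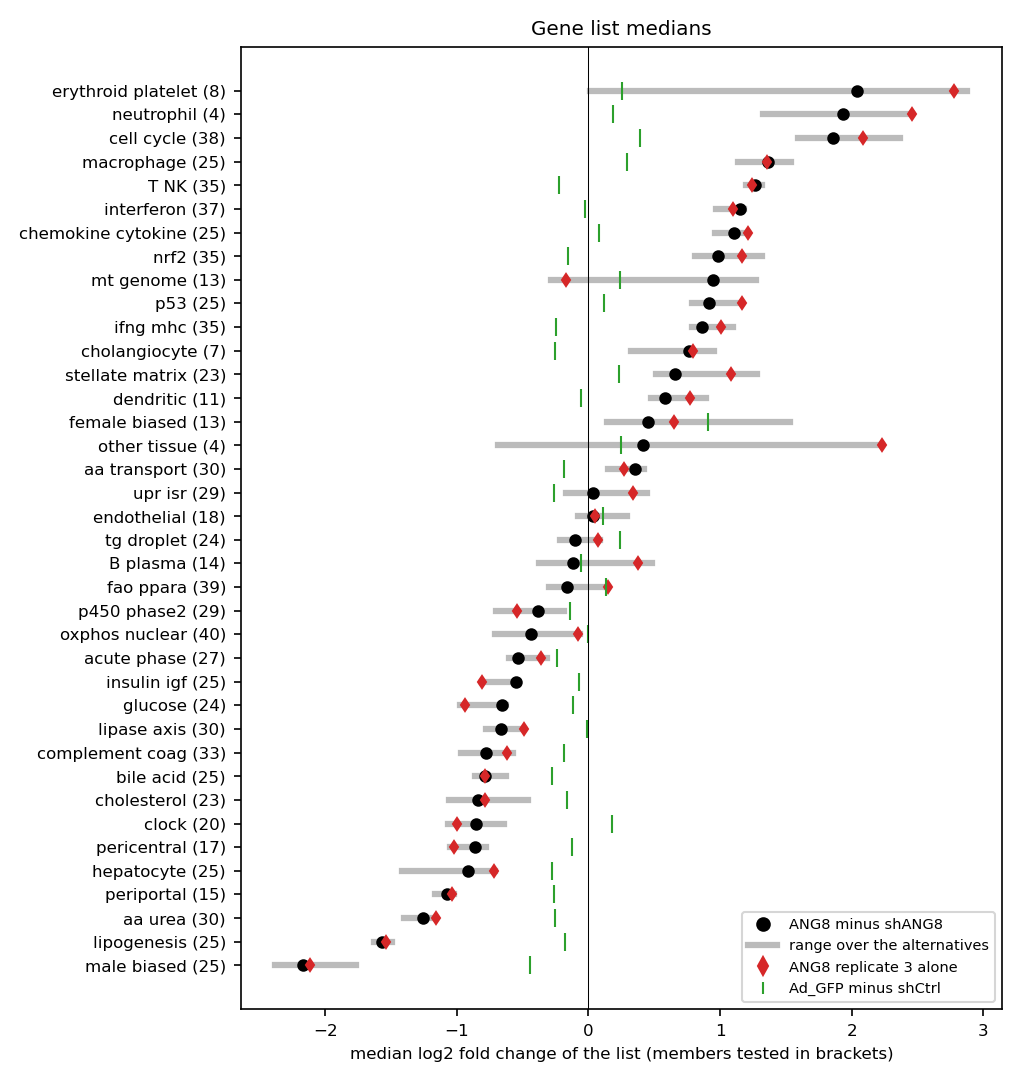
Median log2 fold change of each gene list in ANG8 minus shANG8 (black dots), its range over the alternatives (grey bars), the value with ANG8 replicate 3 as the only ANG8 library (red diamonds) and the median for Ad_GFP minus shCtrl (green ticks). The male-biased list lies lowest among lists with over 20 members, at -2.17, and the cell cycle list highest, at 1.86.

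The genes whose direct difference departed most from that between the control viruses were Cyp2d40, Hk3, Cd8a, Serpina3g, Macrod1 and Pklr, by the smallest p of that contrast. Hk3, a hexokinase of myeloid cells, was at 65.9, 64.8 and 53.5 CPM in ANG8 and 12.6, 13 and 11.4 CPM in shANG8, with 19.5 and 19.7 CPM on average in Ad_GFP and shCtrl. Its departure was 2.33 on the log2 scale (edgeR adjusted p = 0.000311). Macrod1, a mitochondrial hydrolase of ADP-ribose, was at 8.47, 5.82 and 7.22 against 41.3, 34.4 and 43.7 CPM, with control means of 19.2 and 23.2 CPM, and departed by -2.19 (adjusted p = 0.000878). In both genes the control means lay between the ANG8 and the shANG8 libraries. Cd8a departed by 2.34 (adjusted p = 0.000509). Cyp2d40, Serpina3g and Pklr are uncertain and departed by -2.87, 1.88 and -3.02. ANG8 minus shANG8 equals ANG8 minus Ad_GFP, less shANG8 minus shCtrl, plus Ad_GFP minus shCtrl. List medians of these contrasts share libraries and are given side by side. For lipogenesis they were -1.20 for ANG8 minus Ad_GFP, 0.26 for shANG8 minus shCtrl and -0.18 for Ad_GFP minus shCtrl. For T and NK cell markers the 3 values were 1.14, -0.62 and -0.22, and for cell cycle genes 1.31, -0.14 and 0.39. Interferon-stimulated genes were at 0.67, -0.33 and -0.02.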

How the data were processed

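Liver RNA was extracted with Trizol and sequenced from NEBNext Ultra RNA libraries, per the labels' protocols. CASAVA (version 1.8.2), featureCounts (version 1.5.0-p3) and a genome build, mm9, are named in the submitters' processing notes. Neither the aligner nor the strand setting nor the annotation release is given in the sources used here. The authors deposited unnormalized counts of reads for 54532 genes in 12 libraries. Of the gene identifiers, 54495 are in GENCODE vM21, and 53585 (98.3%) have identical coordinates there, so coordinates are given as GRCm38.

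Counts were tested with edgeR 4.0.16 (R 4.3.3) after filterByExpr, which kept 14686 genes, with TMM scaling and a robust quasi-likelihood fit of all 12 libraries in 4 groups. The contrast was ANG8 minus shANG8, and the control libraries enter only the estimate of the spread and the contrasts that name them. The SE is the absolute log2 fold change divided by the square root of F. P-values were adjusted by Benjamini-Hochberg over all genes tested. Log2 CPM values of the principal components used a prior count of 2.

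Named genes were Angptl8, the 12 largest rises and 12 largest falls (called, no overlap, mean log2 CPM not under 1, no predicted-gene symbol), up to 4 members of each of 38 gene lists with the smallest p, and the 6 smallest p of the departure from the controls. Other list members, and the examples among those named, were chosen after their values were seen. The members and lists were chosen with earlier results of these data known. A gene is uncertain where at least 10% of the 50-base windows of its transcripts occur in another gene's transcripts, on either strand. Strand was not stated, so reads of overlapping genes cannot be told apart. Alternatives were a fit on the 6 libraries alone, DESeq2 1.42.0, limma 3.58.1 voom, RLE scaling, no filter and a stricter filter (1 CPM in 3 libraries), the replicate block, the mitochondrial share as a covariate, removal of mitochondrial genes, and leaving out each library. Some members of the lists are counted but not reported by name here.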

Additional observations from a re-analysis of the deposited data

How the results depend on the processing

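The 3717 genes called between ANG8 and shANG8 ranged from 2611 to 3796 without 1 library and from 2750 to 4345 over the other settings tried with all 6 libraries, and fell to 1504 with ANG8 replicate 3 as the only ANG8 library, where the departures from the controls fell to 278 and the list members called from 455 to 246. Fewer samples entered that fit. The departures from the controls ranged from 473 to 1227 without 1 library, and were 1541 with DESeq2 and 1510 with no filter on low counts. Calls between Ad_GFP and shCtrl ranged from 0 to 10 without 1 library, and were 46 with DESeq2 and 96 with no filter. Angptl8 passed with DESeq2 (log2 fold change 0.83, adjusted p = 0.0305), with no filter (0.84, adjusted p = 0.000547) and without shCtrl replicate 3 (0.82, adjusted p = 0.03), within 0.47 to 0.99 without 1 library. Its highest adjusted p was 0.486, with ANG8 replicate 3 alone. The cause of these shifts was not tested. The mitochondrial difference was 9.13 to 19.8 points without 1 library.

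Deviations of same-numbered ANG8 and shANG8 libraries correlated at -0.04, 0.14 and 0.21. ANG8 replicates 2 and 3 correlated best with their own number, and ANG8 replicate 1 with shANG8 replicate 2 (0.107). The main fit did not pair these groups, but pairing by number cannot be set aside. Of the other pairs of groups, all 3 correlations exceeded 0.1 for Ad_GFP and shANG8 (0.235, 0.255 and 0.172) and for no other pair, so some pairing of the libraries that enter the departures from the controls cannot be set aside. With the replicate block 4345 genes were called between ANG8 and shANG8, 1550 departed from the controls, 5 were called between the controls, and Angptl8 passed at 0.84 (adjusted p = 0.0165).

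Of 152 named genes called, 107 were called in every alternative that tested them, 45 were lost in at least 1 and 0 reversed. Among 16 not called, 4 changed sign in some alternative. Cela2a, an elastase gene, was at -0.43 with limma voom, -0.0072 with the replicate block and -3.21 to 2.47 without 1 library. Fabp2 was at 0.64 with the mitochondrial share as a covariate, 0.45 with ANG8 replicate 3 alone and -0.48 to 0.37 without 1 library. Hbb-bt ranged from -0.10 to 3.96 without 1 library, and Sox9 was at -0.13 with ANG8 replicate 3 alone. Depth limits the low genes, and 3 libraries a group limit every test.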

Other observations

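Among the other cell lists, 4 of 12 neutrophil markers were tested, and S100a8, an antimicrobial protein of neutrophils, was at 5.72, 6.72 and 6.13 CPM in ANG8 and 0.682, 1.73 and 0.914 CPM in shANG8 (log2 fold change 2.48, SE 0.48, edgeR adjusted p = 0.00123). Csf3r, a receptor of granulocyte growth factor whose count is uncertain, was also higher (1.40). The other 2 tested, S100a9 (1.23, edgeR adjusted p = 0.156) and Cxcr2 (3.47, adjusted p = 0.0531), did not pass. The summed neutrophil level was 31.24 to 41.23 CPM in ANG8 and 9.99 to 14.32 CPM in shANG8, with Ly6g at 0 in every library of both groups. Of 7 bile duct markers tested, 1 was higher (14.3%, near the 13.3% of all genes tested). It was the uncertain Spp1 (1.67), whose call was lost without ANG8 replicate 3, shANG8 replicate 2 or shANG8 replicate 3. Krt19, a bile duct keratin, stood at 0.05.

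The platelet chemokine Ppbp was higher (3.14), at 2.61, 2.95 and 1.33 CPM in ANG8 and 0.227, 0.393 and 0.141 CPM in shANG8, while Pf4, another platelet gene, stood at 0.38 (adjusted p = 0.671). Alas2, of red cell heme synthesis and uncertain, was lower (-1.65). The median of the red cell and platelet list was 2.04, and without ANG8 replicate 3 it was 0.01. Of genes that could mark pancreas, fat, muscle or gut, 4 were tested. Cela1 was lower (-0.93). Cfd was higher (3.11), at 1.81, 1.39 and 0.243 CPM in ANG8 and 0, 0.157 and 0.211 CPM in shANG8, and lost its call without ANG8 replicate 1 or 2 or without shANG8 replicate 1 or 2. Fabp2 stood at -0.09 (adjusted p = 0.902).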
